A study of Rattus norvegicus with 29 samples.

Results

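Genes of cholesterol synthesis, sterol sensing, export and storage were followed in the livers of rats dosed with pentamethylchromanol (PMCol), the ring system of vitamin E without its long side chain. The members were chosen by name: a row of the deposited table counted when the platform annotation gave it 1 gene symbol and that symbol was among the 30 listed. Of these, 27 genes had such a row, out of 14324 genes measured under a symbol of their own, while Hmgcs1, Mvk and Fdps were not analysed here. The 27 genes took 28 of the 27342 rows (transcript clusters), because Insig1 had 2. By role they fell into 5 genes of the mevalonate arm (Acat2, Pmvk, Mvd, Idi1, Ggps1), 11 of the sterol arm (Fdft1, Sqle, Lss, Cyp51, Tm7sf2, Msmo1, Nsdhl, Hsd17b7, Ebp, Sc5d, Dhcr7), 4 of sterol sensing (Insig1, Insig2, Scap, Srebf2) and 7 of oxysterol signalling, export, storage and transport (Nr1h3, Mylip, Abcg5, Abcg8, Soat2, Stard4, Npc1).

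The study used male Sprague-Dawley rats, aged 6 to 7 weeks when dosing began, and 1 Affymetrix array for the left liver lobe of each of 29 animals. Daily gavage with vehicle (1% methyl cellulose in water) was given for 7 days to 6 rats killed on day 8, and for 28 days to 6 rats killed on day 29. PMCol at 2000 mg/kg was given for 7 days to 6 rats and for 28 days to 5 rats, and PMCol at 200 mg/kg for 28 days to 6 rats. The day 29 doses share the same vehicle animals, and no 200 mg/kg animals of day 8 were analysed here. All animals were of 1 stock and 1 sex, and the labels name no genetic change.

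Each value was a signal on a log scale, taken as log2, from which the median of that cluster over the 29 arrays had been subtracted. A value of 0 is therefore the middle animal for that gene. Levels of expression were lost in that step, so the genes could not be ranked by abundance, and the tissue label could not be checked by the level of liver markers. Array medians lay between -0.02 and 0.03. Vehicle day 29 replicate 1 had the widest spread over all clusters, with an SD of 0.29 against at most 0.24 on the other arrays, and replicates 1 and 2 of that group lay farthest from their group mean (root mean square 0.215 and 0.169, against at most 0.166 elsewhere). Differences are given on the log2 scale with the standard error of a linear model over all 5 groups (limma), and "passed" means an adjusted p below 0.05 after Benjamini-Hochberg adjustment over all 27342 clusters. In bulk liver, fewer cells of a type and less RNA per cell cannot be told apart.

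Cells make cholesterol from acetyl-CoA in a long chain of reactions: the mevalonate arm builds the isoprenoid units, and the sterol arm joins them to squalene, closes the rings and trims the first sterol, lanosterol, to cholesterol. The chain is governed by a feedback loop in the endoplasmic reticulum. When sterols are scarce, Scap escorts the transcription factor SREBP2, encoded by Srebf2, to the Golgi for release, and when sterols are plentiful the Insig proteins hold Scap back. Insig1 is itself a target gene of the SREBP factors, whereas the oxysterol receptor LXR-alpha, encoded by Nr1h3, turns on genes that export sterols, among them Abcg5 and Abcg8.

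The promoters of a few genes on which the results turn are shown as 5′ to 3′ stretches upstream of the annotated start, from RefSeq (build GRCr8), trimmed where a protein-coding gene is annotated. Capitals mark CCAAT on either strand (ATTGG on the reverse strand), the box bound by NF-Y, and TCACNCCA, the core of a sterol response element. Insig1, which fell furthest, is at chr4:8057813-8058019 on the minus strand, a stretch over which a long non-coding RNA is also annotated. Among the enzymes that rose, Dhcr7 is at chr1:208444184-208444433 (plus strand), Lss at chr20:12118231-12118480 (minus strand) and Msmo1 at chr16:29746863-29747112 (plus strand). Tm7sf2, which rose at both doses of day 29, is at chr1:212789573-212789720 (minus strand). The last stretch, chr6:15717731-15717935, lies between the starts of Abcg8 (minus strand) and Abcg5 (plus strand, as printed).
Insig1: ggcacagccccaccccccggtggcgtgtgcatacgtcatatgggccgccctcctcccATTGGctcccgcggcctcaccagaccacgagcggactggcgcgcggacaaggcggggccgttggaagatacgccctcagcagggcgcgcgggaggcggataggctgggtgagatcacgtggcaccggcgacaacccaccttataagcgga
Dhcr7: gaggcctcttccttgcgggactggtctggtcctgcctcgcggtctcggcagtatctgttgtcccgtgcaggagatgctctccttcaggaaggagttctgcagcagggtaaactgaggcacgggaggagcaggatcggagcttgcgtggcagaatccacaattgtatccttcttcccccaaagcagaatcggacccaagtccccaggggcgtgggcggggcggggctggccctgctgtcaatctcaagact
Lss: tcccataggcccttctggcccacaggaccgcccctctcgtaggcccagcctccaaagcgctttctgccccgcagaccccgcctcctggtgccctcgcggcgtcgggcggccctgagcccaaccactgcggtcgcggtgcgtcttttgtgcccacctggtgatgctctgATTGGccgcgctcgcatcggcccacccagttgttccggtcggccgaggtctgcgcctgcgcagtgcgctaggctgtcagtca
Msmo1: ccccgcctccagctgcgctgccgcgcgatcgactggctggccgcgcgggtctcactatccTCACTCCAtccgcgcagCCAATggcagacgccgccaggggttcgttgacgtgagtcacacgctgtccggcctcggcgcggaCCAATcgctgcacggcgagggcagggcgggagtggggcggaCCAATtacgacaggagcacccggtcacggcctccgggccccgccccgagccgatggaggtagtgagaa
Tm7sf2: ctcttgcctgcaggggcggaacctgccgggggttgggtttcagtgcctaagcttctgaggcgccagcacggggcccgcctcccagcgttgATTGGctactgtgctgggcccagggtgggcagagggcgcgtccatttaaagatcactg
Abcg5 and Abcg8: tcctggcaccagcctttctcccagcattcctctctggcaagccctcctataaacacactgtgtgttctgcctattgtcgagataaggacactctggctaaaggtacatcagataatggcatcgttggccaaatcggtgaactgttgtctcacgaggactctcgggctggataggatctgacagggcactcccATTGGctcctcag

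Promoter windows of 300 bases (250 before to 50 after the start) were given for 25 of the 30 listed genes, and Fdft1, Pmvk, Soat2, Sqle and Stard4 were the others. CCAAT, searched on both strands, was in 19 of the 25 windows (76%), against 37.5% of all 33469 windows. Msmo1 held it 3 times. The windows of Insig2, Nr1h3, Hmgcs1 and Srebf2 lay wholly inside the annotated span of their genes, so they are not at its outer start. Insig2, Hmgcs1 and Srebf2 are among the windows counted with CCAAT. The sterol element TCACNCCAC was in 0 of the 25 and in 1.12% of all windows. Its shorter core TCACNCCA, which lies within it and was searched after the first result was seen, was in the windows of Msmo1 and Srebf2 (8%) and in 3.89% of all. The LXR element, a direct repeat, was in 0 of the 25 and in 0.00598% of all. These matches describe the letters of the windows. Abcg5 and Abcg8, whose proteins pump sterols into bile as a pair, stand head to head with starts 206 bases apart, so that 295 bases of their windows are the same sequence and the CCAAT box counted for each is 1 box.

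After 28 days at 2000 mg/kg, enzymes of the sterol arm were higher and the sensor Insig1 lower than in vehicle animals of day 29. After 7 days Dhcr7, Lss and the storage enzyme Soat2 were higher than in vehicle animals of day 8. Npc1, Nr1h3, Mylip, Stard4 and Scap were lower. Vehicle animals of day 29 had lower sterol-arm values than those of day 8. The median difference over the 11 enzymes was -0.20, and none of them passed. On day 8, 3 of 27 genes (11.1%) were higher and 5 (18.5%) lower than in vehicle animals, against 9.32% of all clusters higher and 9.32% lower. The share of higher genes was near that of all clusters and cannot be read as particular to these genes. On day 29, 10 (37.0%) were higher and 3 (11.1%) lower, against 12.1% and 9.55% of all clusters, so the share of lower genes was near that of all clusters. At 200 mg/kg on day 29, 1 gene, Tm7sf2, was higher and none was lower, against 1.37% and 1.42%. On day 29 the 10 higher genes were 8 of the 11 sterol-arm enzymes with Srebf2 and Soat2, and 0 of the 5 mevalonate-arm enzymes passed. The median difference over the 16 synthesis enzymes was 0.38 on day 29, -0.01 on day 8 and -0.08 at 200 mg/kg, while that of all clusters was 0.00 in each case. Over the other 11 genes it was -0.13, -0.31 and -0.04.

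**Figure D1:**
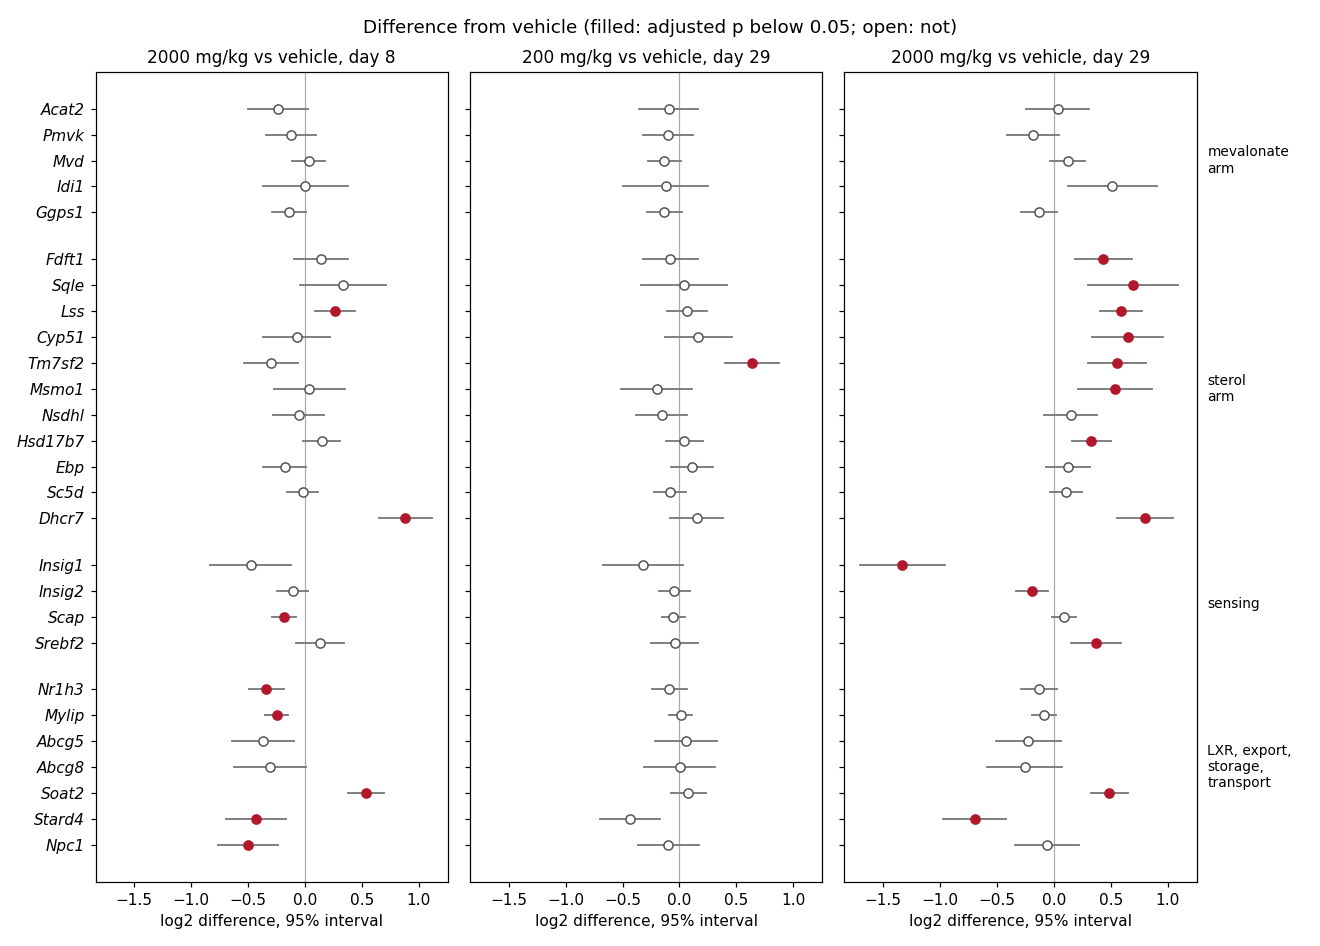
Log2 difference from the vehicle animals of the same day for each of the 27 genes (rows, grouped by role), with 95% intervals from limma; filled points have an adjusted p below 0.05. On day 29 at 2000 mg/kg the sterol-arm points lie to the right of 0, up to Dhcr7 at 0.80, while Insig1 lies at -1.33.

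Dhcr7, the reductase of the last step from 7-dehydrocholesterol to cholesterol, rose on both days. In vehicle animals of day 8 its values ran from -0.30 through a median of -0.17 to 0.10, and at 2000 mg/kg from 0.50 through 0.71 to 0.99. In vehicle animals of day 29 they ran from -0.64 through -0.23 to -0.03, and the 5 animals at 2000 mg/kg had 0.41, 0.42, 0.39, 0.79 and 0.56. Every treated animal lay above every vehicle animal of its day. The difference was 0.88 ± 0.11 (SE, n = 6 and 6) on day 8, or 1.84-fold, with a limma adjusted p of 1.47e-06, and 0.80 ± 0.12 (n = 5 and 6) on day 29, or 1.75-fold, with a limma adjusted p of 1.06e-05. The change between days was -0.08, with a 95% interval from -0.42 to 0.26. Its values at 200 mg/kg ran from -0.49 through -0.09 to 0.12 and overlapped those of vehicle animals, with a difference of 0.15 ± 0.11.

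Lss, the cyclase that turns squalene epoxide into lanosterol, was the other enzyme to pass on both days. Its values were -0.23, -0.08 and 0.06 (lowest, median and highest) in vehicle animals of day 8, and 0.12, 0.15 and 0.37 at 2000 mg/kg. On day 29 they were -0.46, -0.23 and 0.00 with vehicle and 0.25, 0.22, 0.22, 0.42 and 0.72 in the 5 treated animals. The groups did not overlap on either day. The difference was 0.26 ± 0.09 on day 8 (limma adjusted p = 0.0325), a call that was lost when any of 5 of the 12 animals was left out (limma adjusted p up to 0.0910), and 0.59 ± 0.09, or 1.51-fold, on day 29 (limma adjusted p = 1.50e-05). The low dose gave 0.07 ± 0.09.

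Sqle, the epoxidase that feeds Lss, was spread widely among vehicle animals of day 29, from -0.87 through -0.21 to 0.65, and 5 of them lay below all the treated animals, which had 0.53, 0.13, 0.15, 0.85 and 0.81. The difference was 0.70 ± 0.19, or 1.62-fold (limma adjusted p = 0.00924), with overlap between the groups. Vehicle values of day 8 were -0.39, -0.13 and 0.08, and those at 2000 mg/kg were -0.06, 0.17 and 0.65, a difference of 0.33 ± 0.18 that did not pass (limma adjusted p = 0.247). The animals at 200 mg/kg had -0.55, -0.10 and 0.02.

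Cyp51, which removes a methyl group from lanosterol, passed on day 29 only. The 5 animals at 2000 mg/kg had 0.42, 0.27, 0.24, 0.50 and 0.48, and vehicle animals had -0.71, -0.26 and 0.35 as lowest, median and highest. One vehicle animal lay among the treated ones and the rest were below them, and the difference was 0.65 ± 0.15 (limma adjusted p = 0.00222). On day 8 it was -0.07 ± 0.15, with values of -0.44, -0.06 and 0.23 at 2000 mg/kg and -0.32, 0.02 and 0.20 with vehicle. The change of effect between the days was 0.72 ± 0.21 and did not pass (limma adjusted p = 0.0924). Values at 200 mg/kg were -0.38, -0.12 and 0.12.

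Msmo1, the methyl oxidase of the steps that follow, had 0.13, 0.0027, 0.15, 0.64 and 0.69 in the animals at 2000 mg/kg on day 29, against -0.52, -0.29 and 0.41 with vehicle. Replicates 4 and 5 stood above the other treated animals, as they did for Sqle and Idi1, and the difference was 0.53 ± 0.16 (limma adjusted p = 0.0150). Without treated replicate 4 or 5 it no longer passed (limma adjusted p up to 0.0640), nor without vehicle replicates 1 and 2, at 0.42 (limma adjusted p = 0.0884). The day 8 values were -0.28, 0.05 and 0.25 at 2000 mg/kg and -0.48, 0.07 and 0.30 with vehicle, so that the treated range lay within the vehicle range. The 200 mg/kg animals were the lowest of the 5 groups, at -0.73, -0.45 and -0.06, but the difference of -0.20 ± 0.15 from vehicle did not pass.

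Fdft1, the squalene synthase at the head of the sterol arm, rose by 0.44 ± 0.12 at 2000 mg/kg on day 29 (limma adjusted p = 0.00991), and Hsd17b7, a ketone reductase of the same steps as Msmo1, by 0.33 ± 0.08 (limma adjusted p = 0.00423). Hsd17b7 did not overlap between the groups, with 0.09, 0.03, 0.06, 0.37 and 0.40 in treated animals and a highest vehicle value of -0.03. Differences of day 8 were 0.14 ± 0.12 for Fdft1 and 0.15 ± 0.08 for Hsd17b7. Means at 2000 mg/kg were 0.11 on day 8 and 0.07 on day 29 for Fdft1, and 0.21 and 0.19 for Hsd17b7. Vehicle means of the same days were -0.03 and -0.37 for Fdft1, and 0.07 and -0.14 for Hsd17b7. Nsdhl, Ebp and Sc5d, which encode a decarboxylating dehydrogenase, an isomerase and a desaturase of the late steps, did not pass in any comparison with vehicle. On day 29 at 2000 mg/kg their differences were 0.15, 0.12 and 0.11.

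Tm7sf2, a sterol reductase that acts after Cyp51, was the enzyme that also passed at the low dose. Vehicle values of day 29 were -0.52, -0.31 and 0.14, those at 200 mg/kg were 0.27, 0.38 and 0.55, and the 5 animals at 2000 mg/kg had 0.62, 0.18, -0.01, 0.37 and 0.37. All 6 animals at the low dose lay above all 6 vehicle animals, whereas 1 animal at the high dose lay within the vehicle range. The differences were 0.64 ± 0.12, or 1.56-fold, at 200 mg/kg (limma adjusted p = 0.00176) and 0.55 ± 0.12, or 1.47-fold, at 2000 mg/kg (limma adjusted p = 0.00126), and the doses differed by -0.08, with a 95% interval from -0.34 to 0.17. After 7 days they were -0.38, -0.23 and 0.00 at 2000 mg/kg and -0.09, -0.02 and 0.61 with vehicle, a difference of -0.30 ± 0.12 that did not pass (limma adjusted p = 0.0763). Of the 27 genes, 1 passed the test of a change of the 2000 mg/kg effect between the days, Tm7sf2, by 0.85 ± 0.17 (limma adjusted p = 0.0171), where 0.472% of all clusters changed upwards and 0.304% downwards.

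**Figure D2:**
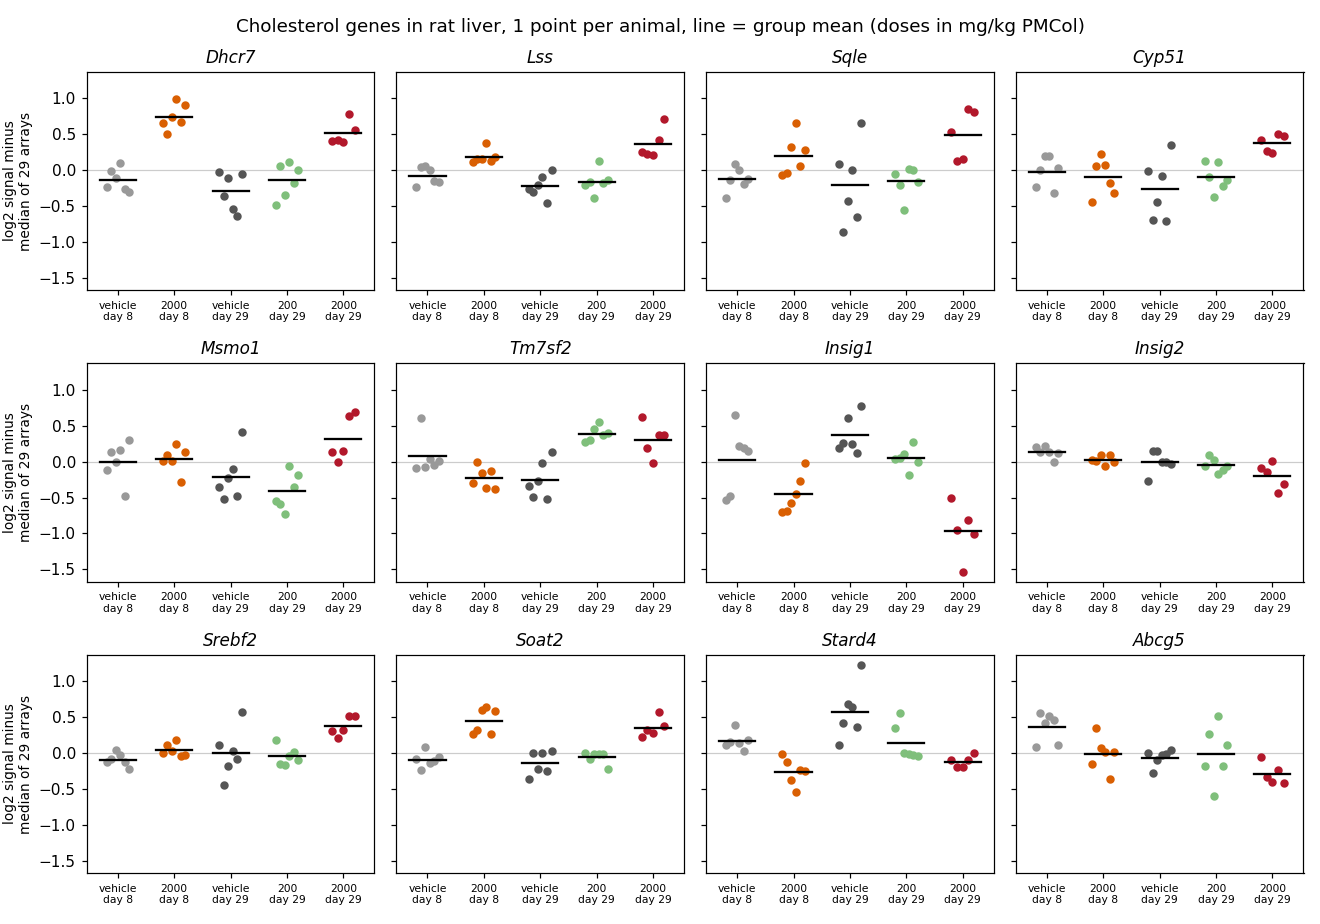
Values of 12 genes, 1 point for each animal, as log2 signal minus the median of the 29 arrays, by group on the horizontal axis, with the group mean as a line. Dhcr7 and Soat2 are raised in both groups given 2000 mg/kg, Tm7sf2 is raised in both dosed groups of day 29, and Insig1 is lowest at 2000 mg/kg on day 29, from -1.53 to -0.51.

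In the mevalonate arm, Idi1, the isomerase that makes the reactive isoprenoid unit, came nearest to the threshold against vehicle. At 2000 mg/kg on day 29 its difference was 0.51 ± 0.19 (limma adjusted p = 0.0547), with 0.22, -0.02, 0.16, 0.73 and 0.94 in the treated animals and a vehicle range from -0.59 to 0.71. Acat2, the thiolase at the start of the chain, differed by 0.03 ± 0.13, and Mvd, the decarboxylase before Idi1, by 0.12 ± 0.07. Pmvk, which phosphorylates mevalonate phosphate, and Ggps1, which leads isoprenoids away from sterols, had values below 0, at -0.18 ± 0.11 and -0.13 ± 0.08. All 5 differences of day 8 lay between -0.24 and 0.03.

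Insig1 fell more than any other of the 27 genes on day 29. Its values were 0.12, 0.25 and 0.78 (lowest, median and highest) in vehicle animals of day 29, and the animals at 2000 mg/kg had -0.51, -0.96, -1.53, -0.81 and -1.0. Every treated animal was below every vehicle animal, and the difference was -1.33 ± 0.18, or 2.51-fold lower (limma adjusted p = 2.79e-06). On day 8 the values were -0.70, -0.51 and -0.01 at 2000 mg/kg and -0.54, 0.17 and 0.65 with vehicle. There the groups overlapped, and the difference of -0.48 ± 0.17 missed the threshold (limma adjusted p = 0.0511). Low-dose values of day 29 were -0.18, 0.05 and 0.28. They lay above all animals at 2000 mg/kg of that day and overlapped those with vehicle. The difference from vehicle was -0.32 ± 0.17 and did not pass (limma adjusted p = 0.433). The change of effect between days was -0.85 ± 0.25 (limma adjusted p = 0.0952).

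The second Insig1 row also fell, with differences of -1.61 ± 0.21 on day 29 (limma adjusted p = 1.55e-06) and -0.60 ± 0.20 on day 8, which passed (limma adjusted p = 0.0351). Its values were -0.55, -0.81, -1.64, -0.97 and -1.28 in the day 29 animals at 2000 mg/kg, and 0.31, 0.57 and 0.96 with vehicle. Both rows read the same gene in the same animals and are no independent evidence of each other.

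Insig2, the other Insig protein gene, had -0.09, -0.14, 0.01, -0.43 and -0.31 at 2000 mg/kg on day 29 and -0.26, -0.01 and 0.15 with vehicle. The groups overlapped, and the difference of -0.19 ± 0.07 passed narrowly (limma adjusted p = 0.0488). It did not pass when any of 8 of the 11 animals was left out (limma adjusted p up to 0.197). The day 8 values were -0.06, 0.01 and 0.10 at 2000 mg/kg and -0.01, 0.14 and 0.22 with vehicle, and at 200 mg/kg they were -0.17, -0.05 and 0.09.

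Srebf2 rose at 2000 mg/kg on day 29, to 0.30, 0.21, 0.33, 0.52 and 0.52, where vehicle animals had -0.44, -0.03 and 0.57. One vehicle animal lay above all treated animals and 5 lay below them, and the difference was 0.37 ± 0.11, or 1.30-fold (limma adjusted p = 0.0112). On day 8 the values were -0.04, 0.01 and 0.18 at 2000 mg/kg and -0.22, -0.10 and 0.05 with vehicle, a difference of 0.13 ± 0.10 that did not pass. Low-dose values were -0.16, -0.06 and 0.19. Scap fell by 0.18 ± 0.05 on day 8 (limma adjusted p = 0.00914), with no overlap between the groups, and its difference on day 29 was 0.09 ± 0.05, which did not pass. Its mean at 2000 mg/kg on day 8 was -0.07, beside vehicle means of 0.12 on day 8 and -0.06 on day 29.

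Soat2, which joins cholesterol to fatty acids for storage and for lipoproteins, rose on both days. Its values were -0.24, -0.10 and 0.08 in vehicle animals of day 8 and 0.27, 0.45 and 0.64 at 2000 mg/kg. On day 29 they were -0.36, -0.11 and 0.03 with vehicle and 0.23, 0.32, 0.28, 0.57 and 0.38 in treated animals. The groups did not overlap, with differences of 0.54 ± 0.08 on day 8 (limma adjusted p = 6.12e-06) and 0.49 ± 0.08 on day 29 (limma adjusted p = 4.23e-05), or 1.45-fold and 1.40-fold. The low dose gave 0.08 ± 0.08.

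Stard4, which carries cholesterol between membranes and is a target of SREBP2, fell on both days. On day 8 its values were -0.54, -0.25 and -0.02 at 2000 mg/kg and 0.03, 0.15 and 0.40 with vehicle. On day 29 the treated animals had -0.10, -0.20, -0.19, -0.09 and -0.0033, and vehicle animals had 0.12, 0.53 and 1.23. Every treated animal was below every vehicle animal of its day, with differences of -0.43 ± 0.13 (limma adjusted p = 0.0179) and -0.69 ± 0.13, or 1.62-fold lower (limma adjusted p = 0.000314). The vehicle means were 0.17 on day 8 and 0.58 on day 29, and those at 2000 mg/kg were -0.26 and -0.12. The larger difference of day 29 thus came with a higher vehicle mean and not with a lower treated mean. The day 8 call was lost without 2000 mg/kg replicate 4 (limma adjusted p = 0.0552). Animals at 200 mg/kg had -0.04, -0.01 and 0.56, and the difference of -0.44 ± 0.13 missed the threshold (limma adjusted p = 0.0631), and without vehicle replicates 1 and 2 it was -0.59 and passed (limma adjusted p = 0.0131).

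Abcg5 and Abcg8 did not pass against vehicle on either day. On day 8 Abcg5 had -0.36, 0.02 and 0.35 at 2000 mg/kg and 0.09, 0.44 and 0.57 with vehicle, a difference of -0.37 ± 0.13 (limma adjusted p = 0.0519), and Abcg8 had -0.20, 0.11 and 0.42 against -0.11, 0.48 and 0.84, a difference of -0.31 ± 0.15. Treated animals of day 29 had -0.05, -0.33, -0.41, -0.23 and -0.42 for Abcg5, with a vehicle range from -0.28 to 0.04. For Abcg8 they had -0.06, -0.27, -0.49, -0.38 and -0.37, with a vehicle range from -0.37 to 0.21. The differences were -0.22 ± 0.14 and -0.25 ± 0.16, and at 200 mg/kg they were 0.05 ± 0.13 and 0.00 ± 0.15.

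On day 8 the remaining genes of this group were lower at 2000 mg/kg than in vehicle animals of that day. Npc1, which lets cholesterol out of lysosomes, had -0.48, -0.32 and -0.15 against -0.05, 0.21 and 0.38 with vehicle, a difference of -0.50 ± 0.13 (limma adjusted p = 0.00620). Nr1h3 fell by 0.34 ± 0.07 (limma adjusted p = 0.00119), and Mylip, a ubiquitin ligase induced by LXR that removes lipoprotein receptors, fell by 0.25 ± 0.05 (limma adjusted p = 0.000470). None of the 3 overlapped with vehicle of day 8. The vehicle means were themselves higher on day 8 than on day 29. They were 0.18 and -0.0015 for Npc1, 0.24 and 0.06 for Nr1h3, and 0.12 and 0.03 for Mylip. The day 8 means at 2000 mg/kg were -0.32, -0.10 and -0.13. On day 29 the differences were -0.06 ± 0.14 for Npc1, -0.13 ± 0.08 for Nr1h3 and -0.08 ± 0.05 for Mylip, and none passed. Over all 27 genes, called or not, 3 were higher and 5 lower without overlap between groups on day 8, where 5.84% of all clusters were higher and 5.19% lower in that way. On day 29 the counts were 4 and 2 of 27, beside 6.43% and 4.99% of all clusters.

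Markers of other liver cells moved with these groups. The counts below stand beside 9.32% of all clusters higher and 9.32% lower at 2000 mg/kg on day 8, and 12.1% and 9.55% on day 29. Of 11 Kupffer cell and macrophage markers, 11 fell at 2000 mg/kg on day 8 and 0 of 11 changed on day 29. Their mean over the list ran from 0.38 to 1.32 in vehicle animals of day 8, from -0.66 to 0.11 in treated animals of day 8 and from -0.58 to 0.87 in vehicle animals of day 29. On day 29, 8 of 9 stellate cell markers fell, with list means from 0.07 to 0.53 in vehicle and from -0.53 to -0.30 in treated animals, and 8 of 12 immediate early genes fell, from 0.27 to 1.01 in vehicle and from -1.05 to -0.34 in treated animals. Of 9 hepatocyte markers, 6 fell on day 8 and 3 on day 29, with list means from -0.11 to 0.09 in vehicle and -0.24 to -0.06 in treated animals of day 8, and from 0.03 to 0.10 and -0.13 to -0.06 on day 29. Of the other lists, 2 of 3 endothelial, 5 of 8 lymphocyte and 2 of 3 erythrocyte markers fell on day 8 and none of them on day 29, and 1 of 3 cholangiocyte markers rose on each day. The centred scale cannot show whether a marker was absent. The part of these markers in the falls of Npc1, Nr1h3, Mylip and Scap on day 8, and of Insig1 and Stard4 on day 29, was not tested.

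Set side by side in each animal, the mean of the 16 synthesis enzymes minus the mean of the 11 other genes was -0.12 ± 0.09 (SD, n = 6) with vehicle and 0.13 ± 0.08 (n = 6) at 2000 mg/kg on day 8. On day 29 it was -0.19 ± 0.14 (n = 6) with vehicle, -0.10 ± 0.08 (n = 6) at 200 mg/kg and 0.33 ± 0.13 (n = 5) at 2000 mg/kg. The lowest animal at 2000 mg/kg stood at 0.03 on day 8 and at 0.19 on day 29, above the highest vehicle animal of each day, which was at 0.01. Because the members and lists were chosen with earlier results of these data known, this separation is a description and no test of the lists. Among animals of day 8 the mean of the other genes was -0.06 ± 0.06 at 2000 mg/kg and 0.15 ± 0.09 with vehicle, while the enzymes had 0.07 ± 0.08 and 0.02 ± 0.11. On day 29 the enzymes had 0.21 ± 0.14 against -0.12 ± 0.19, and the other genes -0.12 ± 0.08 against 0.07 ± 0.14. Of the 11 other genes, 8 had a day 29 difference below 0 and 3 above. Insig1 (-1.33) and Stard4 (-0.69) fell most, while Soat2 (0.49) and Srebf2 (0.37) rose. The mean of this list thus leans on Insig1 and Stard4 and does not stand for each gene.

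**Figure D3:**
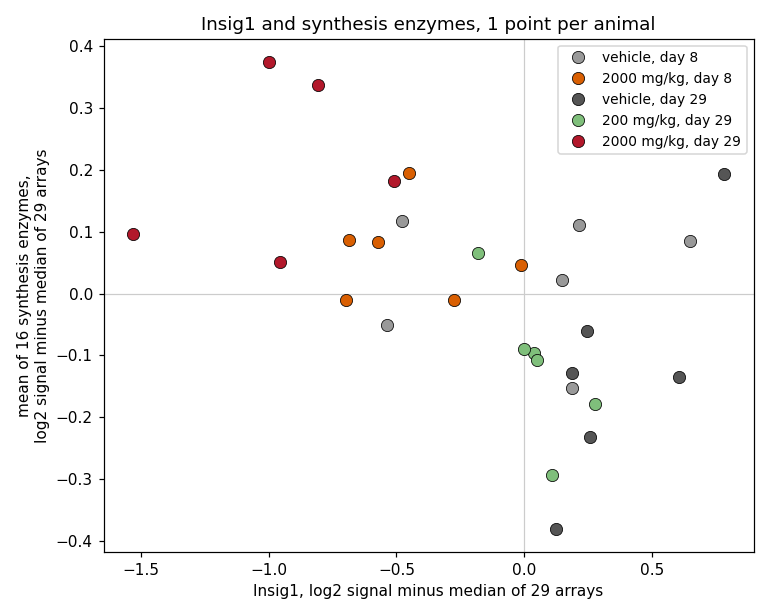
Mean of the 16 synthesis enzymes (vertical axis) against Insig1 (horizontal axis), both as log2 signal minus the median of the 29 arrays, 1 point per animal, coloured by group. The 5 animals given 2000 mg/kg for 28 days lie at the upper left, with enzyme means from 0.05 to 0.37 and Insig1 at or below -0.51.

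Enzymes minus Insig1 gave 1.17 ± 0.36 (n = 5) at 2000 mg/kg and -0.49 ± 0.17 (n = 6) with vehicle on day 29, with no overlap, since the lowest treated animal was at 0.69 and the highest vehicle animal at -0.31. Insig1 alone did not overlap between these groups, whereas the enzyme means did, from 0.05 to 0.37 against -0.38 to 0.19. The gap thus restates that of Insig1 and is no separate result. On day 8 the enzymes minus Insig1 gave 0.51 ± 0.28 (n = 6) against -0.01 ± 0.46 (n = 6), with overlap. Within the day 29 treated group the order of the animals was not the same on both sides: replicate 3, with the lowest Insig1 at -1.53, had an enzyme mean of 0.10, and replicate 5, with the highest enzyme mean of 0.37, had Insig1 at -1.0.

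The doses of day 29 were also compared directly. At 2000 mg/kg, 11 of 27 genes were higher than at 200 mg/kg and 1, Insig1, was lower, against 6.05% and 3.84% of all clusters. Of the enzymes, Msmo1 (0.73 ± 0.16), Dhcr7 (0.65 ± 0.12), Sqle (0.65 ± 0.19), Idi1 (0.63 ± 0.19), Lss (0.53 ± 0.09), Fdft1 (0.51 ± 0.12), Cyp51 (0.48 ± 0.15), Hsd17b7 (0.29 ± 0.08) and Mvd (0.25 ± 0.07) were higher. Srebf2 (0.42 ± 0.11) and Soat2 (0.41 ± 0.08) were higher as well, and Insig1 was lower by 1.01 ± 0.18. Without 2000 mg/kg replicate 4, or without replicate 5, 7 genes passed instead of 12, with no share of all clusters in those runs to set beside it. The calls of Sqle, Idi1, Cyp51, Hsd17b7 and Mvd were lost without either, and over all single animals left out their limma adjusted p reached 0.102, 0.133, 0.104, 0.104 and 0.104. Stard4 differed between the doses by -0.26 ± 0.13 and did not pass.

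Between vehicle animals of day 29 and day 8, 0 of 27 genes passed by limma, against 0.962% of all clusters higher and 1.77% lower. Of the 27 genes, 10 had an unadjusted p below 0.05, but the share of all clusters at that rule is not given. That count therefore cannot be read as particular to these genes. Nearest were Scap, lower by 0.17 ± 0.05 (limma adjusted p = 0.0591), Abcg8 and Abcg5, with differences of -0.49 ± 0.15 and -0.42 ± 0.13 (limma adjusted p = 0.0767 and 0.0772), and Stard4, with 0.41 ± 0.13 (limma adjusted p = 0.0782). Scap and Abcg5 did not overlap between these groups, and the share of all clusters without overlap here is not given either. Without vehicle day 29 replicate 2, 4 genes passed, with no share of all clusters in that run to set beside it. In the same comparison 11 of 11 Kupffer cell and macrophage markers were lower, with a median difference of -1.11, as were 2 of 3 endothelial, 1 of 8 lymphocyte and 1 of 3 erythrocyte markers, and 1 of 9 hepatocyte markers was higher. Their part in these differences was not tested. Day and time on vehicle cannot be told apart from age, since each day had its own animals.

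Animals of 1 group also varied together. With group means removed, the 120 pairs of synthesis enzymes over the 29 animals had a median Pearson r of 0.34 (from -0.83 to 0.88), and 106 pairs were above 0. All genes of an animal share 1 array and 1 RNA sample, so these are descriptions with no test. The median r over pairs of other clusters is not given, so these values cannot be read as particular to the enzymes. Idi1 and Sqle had the highest r, at 0.88 (Spearman rho 0.83), and 0.83 without the 2 animals farthest from the median of Idi1. Sqle and Srebf2 had 0.85 (rho 0.78, and 0.71 without those 2 animals for Sqle). Nsdhl and Pmvk went opposite ways, at -0.83 (rho -0.70, and -0.65 without 2 animals). Insig1 with the 16 enzymes had a median r of 0.14 and values from -0.23 to 0.40, and that median was 0.03 without vehicle day 29 replicate 6, 0.09 without vehicle day 29 replicate 5 or 2000 mg/kg day 29 replicate 3, and 0.21 without vehicle day 8 replicate 2. Abcg5 and Abcg8, which share the printed stretch, had 0.81 (rho 0.80, and 0.79 without 2 animals). The 2 Insig1 rows had an r of 0.90 on the same footing, the level that 2 readings of 1 gene reached here.

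**Figure D4:**
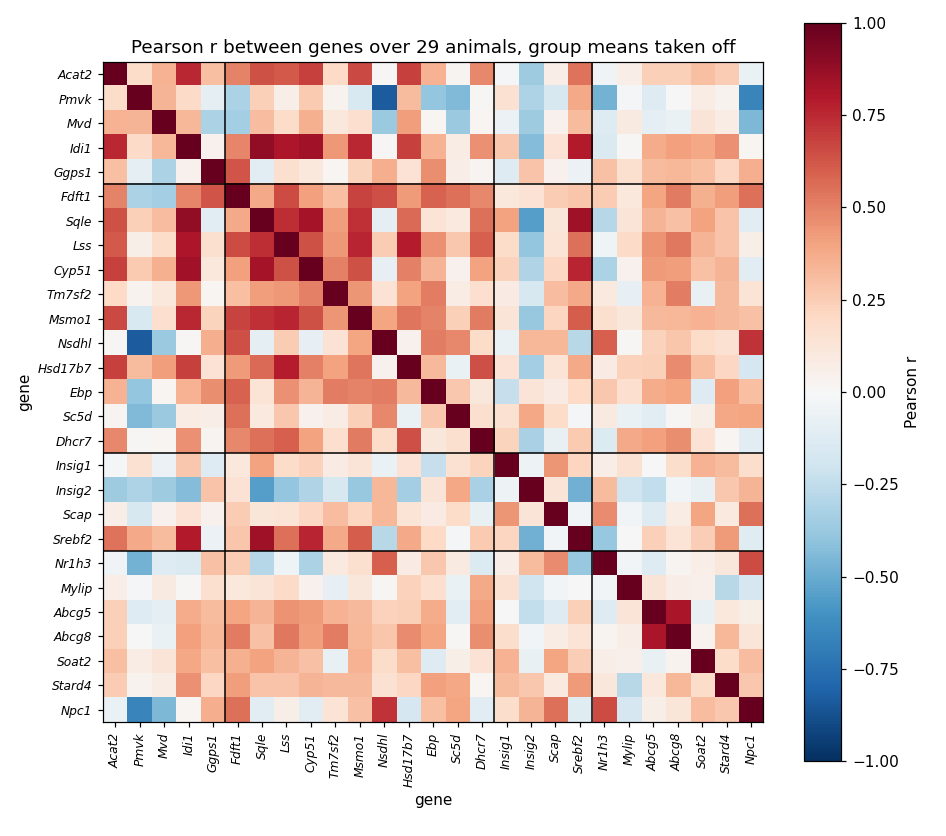
Pearson r between each pair of the 27 genes over 29 animals after the group means were taken off, coloured from -1 (blue) to 1 (red), with lines between the 4 roles. Idi1, Sqle, Lss and Cyp51 form a red block (Idi1 and Sqle at 0.88), and Abcg5 with Abcg8 at 0.81 stand out at the lower right.

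Genes outside the 27 were counted over whole lists, and those named from them were chosen after their values were seen. Of 20 further cholesterol genes with a row of their own, 6 were higher and 7 lower at 2000 mg/kg on day 8, 5 higher and 2 lower on day 29, and 1 higher at 200 mg/kg. These are 30% and 35% on day 8, against 9.32% of all clusters in each direction. On day 29 they are 25% and 10%, against 12.1% and 9.55%, so the share of lower genes was near that of all clusters. At 200 mg/kg the share is 5%, against 1.37%. Tmem97, a sterol-regulated membrane protein, was higher in all 3 comparisons, by 0.66 ± 0.10, 0.94 ± 0.11 and 0.40 ± 0.10 (limma adjusted p = 2.36e-05, 2.36e-07 and 0.0333). Mbtps2, the protease that makes the last cut in releasing SREBP, rose by 0.56 ± 0.15 on day 8 and 0.78 ± 0.16 on day 29. The efflux genes Abca1 and Abcg1 fell on day 8, by 0.38 ± 0.08 and 0.51 ± 0.12, and did not pass on day 29, with -0.04 ± 0.09 and -0.18 ± 0.12. Lrp1, a lipoprotein receptor, fell on both days, by 0.53 ± 0.07 and 0.50 ± 0.08, and so did Cyp27a1, an enzyme of the acidic bile acid pathway, by 0.41 ± 0.07 and 0.44 ± 0.07.

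The fatty acid genes driven by the related factor SREBP1 did not move as one. Of 11 measured, 4 were higher and 2 lower at 2000 mg/kg on day 29, and 4 higher and 3 lower on day 8. At 200 mg/kg, 2 were higher and 1 lower. The shares were 36.4% and 18.2% on day 29, against 12.1% and 9.55% of all clusters. They were 36.4% and 27.3% on day 8, against 9.32% in each direction, and 18.2% and 9.09% at 200 mg/kg, against 1.37% and 1.42%. On day 29 Me1, which supplies NADPH, rose by 2.06 ± 0.13, Elovl6, a fatty acid elongase, by 1.67 ± 0.21 and Fads1, a desaturase, by 0.89 ± 0.11, while Scd, the desaturase that makes oleic acid, fell by 2.41 ± 0.34. Of these 4 genes, Me1 also rose at 200 mg/kg, by 0.75 ± 0.12 (limma adjusted p = 0.000464).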

How the data were processed

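The deposited value table of the series holds 27342 transcript clusters on 29 Affymetrix arrays, 1 per rat liver. Its values are deposited by the authors as log2 signal centred on each cluster's median over the arrays; the log base is not stated and was taken as log2. PLIER and MAS5 are listed in the submitters' processing notes, with neither a version nor a step. Genes were named through the platform annotation (15097 clusters with 1 symbol, 323 with several, 11922 with none). Values were used as deposited.

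A model of 5 group means was fitted to all clusters with limma 3.58.1 in R 4.3.3 (lmFit and eBayes, two-sided, Benjamini-Hochberg over all clusters, threshold 0.05). A gene with 2 rows is counted by the lowest probe number. Genes past the threshold with an absolute difference of at least 0.5 against vehicle, and Insig1, Insig2, Srebf2, Abcg5 and Abcg8, are given by animal. The members and lists were chosen with earlier results of these data known. Replicate numbers did not pair the animals: correlations of same-numbered deviations ran from -0.28 to 0.30, and at most 2 of 6 pairs of a comparison were above 0.1. The number of arrays limits the precision. The fit was tried on simulated data, but its settings and recovery are not given, so no call here rests on it. Alternatives were other normalization, centring, weights, thresholds, samples and rows, the replicate block, and leaving out animals.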

Additional observations from a re-analysis of the deposited data

Results flagged for a closer look

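Of the values by animal, 7 stood far from the other animals of their group by Dixon's test at the 95% level, out of 135 pairs of gene and group, where chance gives about 1 in 20. Vehicle day 29 replicate 1, the array with the widest spread, gave 2 of the 7: Npc1 at -0.82, where the other 5 animals lay between 0.02 and 0.30, and Nsdhl at -0.67. In vehicle animals of day 29, Hsd17b7 was at -0.52 in replicate 5. In vehicle animals of day 8, Fdft1 was at -0.39 in replicate 5, Mvd at -0.16 in replicate 1 and Tm7sf2 at 0.61 in replicate 2. At 2000 mg/kg on day 8, Lss was at 0.37 in replicate 4.

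The 2000 mg/kg effect on Tm7sf2 differed between the days by 0.85 on the log2 scale, by the interaction test of limma. Leaving out any 1 animal kept this call, with limma adjusted p up to 0.0400 for Tm7sf2.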

How the results depend on the processing

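No called gene reversed its direction under any alternative run. The share of all clusters called in each alternative run is not given. Changes in the counts below therefore cannot be read as particular to these genes. Against vehicle at 2000 mg/kg, 8 genes passed on day 8 and 13 on day 29, and leaving out single animals gave 6 to 9 and 11 to 14. On day 8 the 5 lower genes became 8 with array quality weights and 7 with single-symbol clusters only, for 11 and 10 genes in all. At 200 mg/kg the count of 1 became 2 with single-symbol clusters only, with array quality weights and with vehicle day 29 replicates 1 and 2 left out together, and single animals left out gave 1 to 2. Between doses the 12 genes became 6 at a threshold of 0.01 and 7 to 13 without single animals. Between vehicle days the count of 0 became 4 with array weights, 1 without both vehicle replicates and 0 to 4 without single animals. For the change of effect, the count of 1 became 3 with array weights, 0 at 0.01 and 1 to 2 without single animals. At the threshold of 0.01 no gene passed this last test by limma. An unadjusted p below 0.05 was found for 9 genes, with no share of all clusters at that rule to set beside it.

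The replicate block, a number that does not pair the animals, gave 9, 14, 1, 13, 0 and 1 genes for these 6 comparisons in the same order. Msmo1 on day 29 did not pass with quantile normalization, with only its own groups in the fit or without both vehicle replicates, and Sqle and Srebf2 did not pass with only their own groups in the fit. Enzymes minus other genes differed from vehicle by 0.25 on day 8, 0.52 on day 29 and 0.09 at 200 mg/kg, and by 0.22 to 0.28, 0.47 to 0.56 and 0.06 to 0.13 without single animals.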
